A study of Mus musculus with 7 samples.

Results

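Tissue inhibitors of metalloproteinases (TIMPs) and ADAMTS proteases were examined in aged mouse skin after topical ABT-263. The set was given by name as 10 genes, the 4 TIMPs (Timp1, Timp2, Timp3 and Timp4) and 6 ADAMTS proteases (Adamts1, Adamts2, Adamts4, Adamts5, Adamts9 and Adamts12), out of 55450 genes in the count table. Dorsal skin came from male C57BL/6 wild type mice aged 24 months, 4 treated with DMSO alone (mice 480, 481, 482 and 483) and 3 with 5 μM ABT-263 in DMSO (mice 476, 477 and 478) for 5 days. Mice of both groups were clipped, depilated with Nair, cleansed with ethanol and covered with a semi-occlusive dressing, so the controls carry each of these procedures too. ABT-263 (Navitoclax) inhibits BCL-2 and its relative BCL-xL, which protect cells from apoptosis, and is used as a senolytic, a drug that removes senescent cells. RNA of whole skin homogenate was sequenced in bulk, with 1 library per mouse and between 20344364 and 43562330 read pairs counted per library. The smallest ABT-263 library held more counts than the largest DMSO library. In bulk samples, fewer cells of a type and less RNA per cell cannot be told apart.

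ADAMTS proteases are secreted zinc enzymes that cut matrix molecules outside the cell. ADAMTS1, ADAMTS4, ADAMTS5 and ADAMTS9 cut proteoglycans such as aggrecan and versican, while ADAMTS2 removes the N-terminal propeptide of fibrillar procollagens so that collagen can assemble into fibrils in the dermis. TIMPs are small secreted proteins that block the active site of matrix metalloproteinases (MMPs), and TIMP3, which is held in the matrix, is the family member best known for also blocking ADAMTS and ADAM proteases.

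Expression is given as CPM, the counts of a gene scaled to a common library total after TMM normalization, and treatments were compared with edgeR's quasi-likelihood test with adjustment over the 17959 genes tested. All 10 genes passed the filter on low counts, and the smallest count of any of them in any library was 30. After ABT-263, Adamts1 and Adamts12 rose, Timp3 fell, and the other 7 did not pass an adjusted p-value of 0.05. That is 3 of 10 genes, where 24.2% of all genes tested passed (12.4% higher and 11.7% lower), so the share is near the background. The log2 fold change was positive for 8 of the 10, including all 6 ADAMTS genes, and 9000 of the 17959 genes tested had a positive one. The median log2 fold change was 1.00 for the ADAMTS genes, 0.03 for the TIMPs and 0.00223 for all genes tested. ABT-263 and DMSO libraries did not overlap for 3 of the 10 genes, while 37.1% of all genes tested had no overlap (18.7% above and 18.4% below). With 1 mouse left out at a time, between 0 and 3 of the 10 genes were called higher and 0 or 1 lower.

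**Figure D1:**
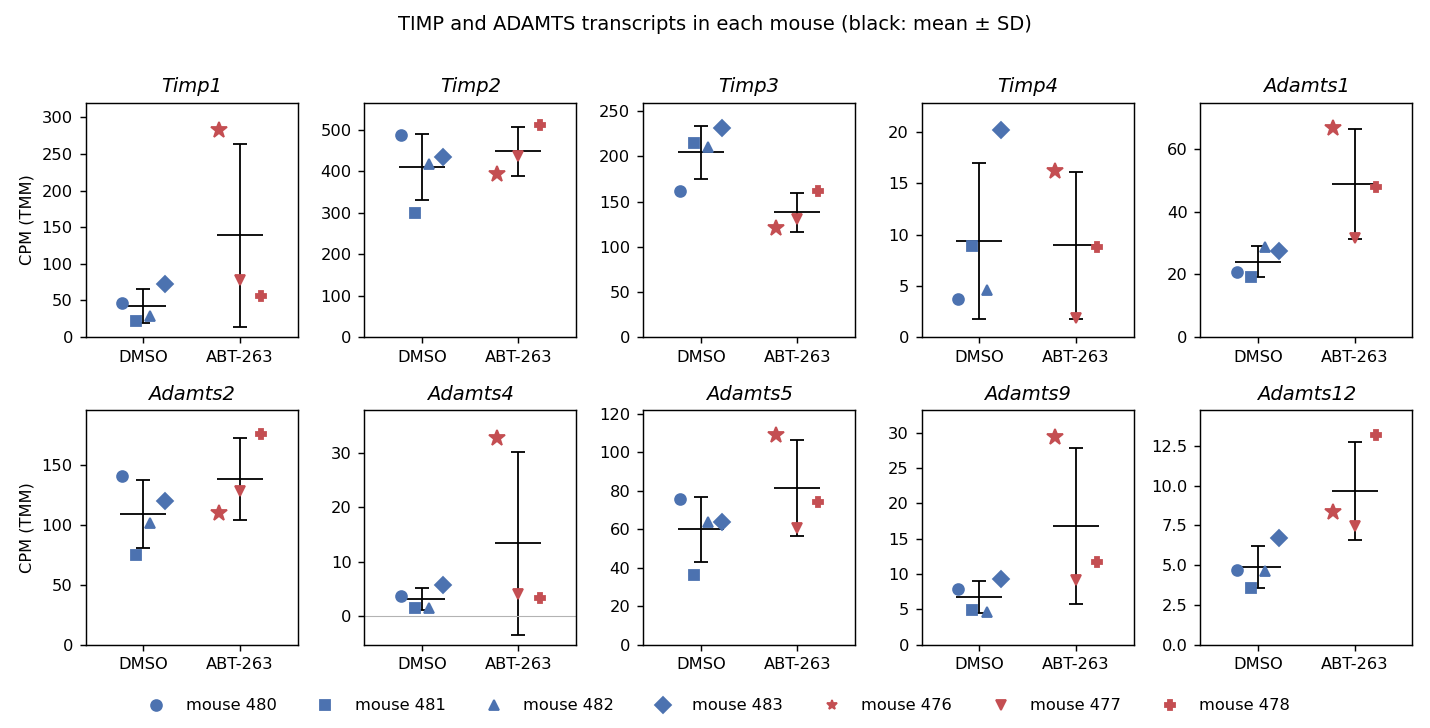
Expression of each TIMP and ADAMTS gene in CPM (vertical axes, TMM-normalized, linear) in the 4 DMSO-treated mice (blue) and the 3 ABT-263-treated mice (red), with 1 symbol per mouse and the mean ± SD in black. Mouse 476 (star) was the highest of the ABT-263 group for 6 of the 10 genes, and its Timp1, Adamts4 and Adamts9 lay far above those of the other mice.

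Levels of different genes were compared per length of their annotated exons, as RPKM. In DMSO-treated skin, Timp2 had the highest level at 105 ± 20.5 RPKM (SD, n = 4), followed by Timp1 at 47.6 ± 25.7 and Timp3 at 25.1 ± 3.66 RPKM. The ADAMTS genes lay below these 3, with Adamts2 at 11.7 ± 3.01 RPKM (SD, n = 4), Adamts5 at 5.55 ± 1.55 and Adamts1 at 4.54 ± 0.907 RPKM. Timp4 was at 1.59 ± 1.29 RPKM, Adamts4 at 0.651 ± 0.425, Adamts12 at 0.449 ± 0.122 and Adamts9 at 0.445 ± 0.151 RPKM (SD, n = 4 each). In this order, Timp1 and Timp3, Adamts5 and Adamts1, Timp4 and Adamts4, and the lowest 3 genes did not differ beyond their spread between mice. Per length of the longest transcript, Timp3 was at 43.3 RPKM and Adamts9 at 0.835 RPKM, and the first 7 places of the order were unchanged. After ABT-263, Timp1 had the highest mean level of the 10 genes at 157 ± 141 RPKM (SD, n = 3), above Timp2 at 115 ± 15.4 RPKM, although only mouse 476 had more Timp1 than Timp2 per length.

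Timp3 was the inhibitor that fell. The gene lies on chromosome 10 from 86300372 to 86349506 on the plus strand of GRCm38 (mm10), and 21.28% of its exon bases face exons of Syn3 on the other strand. It was at 162, 214, 210.3 and 231 CPM in DMSO-treated mice 480, 481, 482 and 483, and at 121, 131 and 162 CPM in ABT-263-treated mice 476, 477 and 478. The groups touched, with 161.916 CPM in DMSO-treated mouse 480 and 161.907 CPM in ABT-263-treated mouse 478. The log2 fold change was -0.57 (standard error, SE, 0.17, adjusted p = 0.0455 from edgeR), a level 0.675 times that after DMSO. An exact permutation test over the 7 mice gave p = 0.0571 (two-sided), where the smallest value that 4 mice against 3 allow is 0.0286. Direction was the same with each mouse left out (log2 fold change from -0.69 to -0.48), but the call held only without DMSO-treated mouse 480, and adjusted p reached 0.144 without ABT-263-treated mouse 476.

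Timp1, a soluble inhibitor known as an inflammation-induced gene, varied widely among the ABT-263 mice. It lies on chromosome X from 20870166 to 20874735. After DMSO, Timp1 was at 46.4, 21.8, 28.1 and 72.8 CPM in mice 480, 481, 482 and 483, and after ABT-263 at 283, 78.1 and 56.1 CPM in mice 476, 477 and 478. Mouse 478 thus lay below DMSO-treated mouse 483, and the groups overlapped. The log2 fold change of 1.72 (SE 0.63, 95% interval 0.25 to 3.18) did not pass adjustment over all genes (adjusted p = 0.0836 from edgeR). Without mouse 476 it was 0.67 (adjusted p = 0.385 from edgeR). The DESeq2 Wald test placed Timp1 past the threshold (adjusted p = 0.0134).

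Timp2, which besides blocking MMPs takes part in activating pro-MMP2 at the cell surface, differed little between the groups. Its 4 DMSO values ran from 299.6 CPM in mouse 481 to 489 CPM in mouse 480, and the 3 ABT-263 values from 394 CPM in mouse 476 to 513 CPM in mouse 478. Mice 476 and 477 lay within the DMSO range and mouse 478 above it, and the log2 fold change was 0.13 (95% interval -0.33 to 0.58, adjusted p = 0.667 from edgeR). The gene is on chromosome 11 from 118301069 to 118355740. Timp4 on chromosome 6, from 115241892 to 115252205, was at 3.72, 8.89, 4.62 and 20.3 CPM after DMSO in mice 480 to 483, and at 16.2, 1.89 and 8.79 CPM after ABT-263 in mice 476 to 478. Both groups spanned almost the same range (log2 fold change -0.07, adjusted p = 0.958 from edgeR), and the 95% interval of -1.89 to 1.75 on the log2 scale was the widest of the 4 TIMPs.

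**Figure D2:**
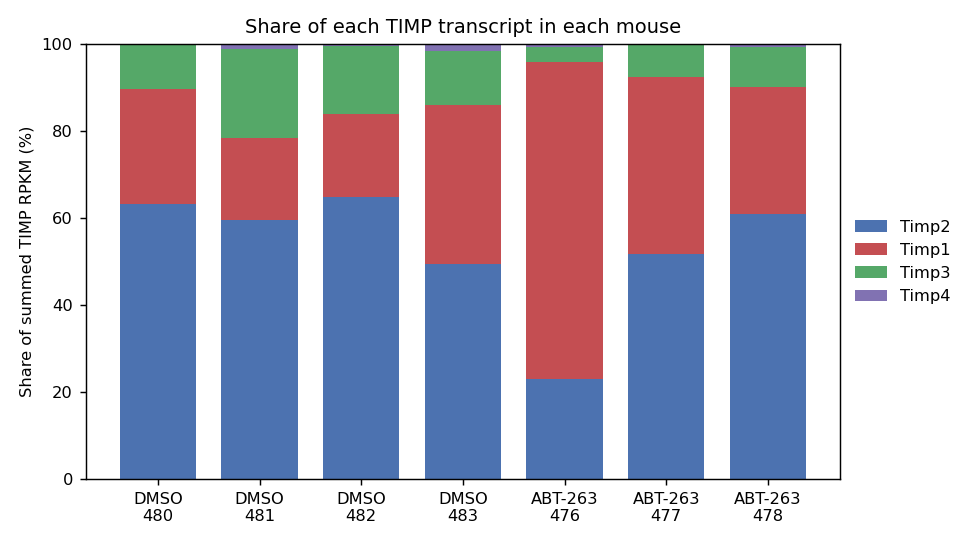
Share of each TIMP in the summed TIMP level per length of all annotated exons (RPKM, vertical axis in percent) for each of the 7 mice, with 1 bar per library. Timp2 made up 49.5% to 64.7% of the sum after DMSO, and in ABT-263-treated mouse 476 Timp1 made up 72.8% of it.

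The makeup of the TIMP pool was compared within each library, where the scaling between libraries has no part. Timp3 made up between 10.03% and 20.4% of the summed TIMP level per length after DMSO and between 3.40% and 9.20% after ABT-263. These shares use the length of all annotated exons. Per longest transcript, Timp3 was at 43.3 rather than 25.1 RPKM after DMSO, so its share would be larger. Timp1 contributed between 19.0% and 36.3% after DMSO, and 72.8%, 40.6% and 29.2% in ABT-263-treated mice 476, 477 and 478. The ratio of Timp1 to Timp3 counts was 0.287, 0.102, 0.134 and 0.315 in the 4 DMSO libraries (mice 480 to 483) and 2.33, 0.597 and 0.347 in the 3 ABT-263 libraries (mice 476 to 478). Every ABT-263 library was above every DMSO library, a mean difference of 2.07 on the log2 scale (exact permutation test, two-sided, p = 0.0286, adjusted over 11 ratios p = 0.105). Timp2 to Timp3 also separated the groups, with log2 ratios of 1.59, 0.48, 0.99 and 0.91 after DMSO and 1.70, 1.74 and 1.66 after ABT-263 (difference 0.71, exact permutation p = 0.0571, adjusted p = 0.157). None of the 11 ratios examined passed adjustment, and the smallest adjusted p was 0.105. As the exact test cannot go below 0.0286 here, no single ratio could pass by itself, however far apart the groups lay. The adjusted values therefore do not settle whether a ratio differed.

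Adamts1, an aggrecanase and versicanase that is switched on early in many tissues under stress or inflammation, rose in ABT-263-treated skin. The gene is on chromosome 16 from 85793827 to 85803113 on the minus strand, beside Adamts5. It was at 20.8, 19.1, 28.8 and 27.5 CPM in DMSO-treated mice 480, 481, 482 and 483 and at 66.8, 31.6 and 47.7 CPM in ABT-263-treated mice 476, 477 and 478. All ABT-263 mice lay above all DMSO mice, although mouse 477 came close to mouse 482. The log2 fold change was 1.02 (SE 0.26, adjusted p = 0.0283 from edgeR), a 2.02-fold rise, and the exact permutation test gave p = 0.0286, the smallest possible. Without mouse 476 the log2 fold change was 0.73 (adjusted p = 0.0761 from edgeR), and of the 7 fits that left out a mouse only that without mouse 477 kept the call.

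Adamts12, a protease known to cut cartilage oligomeric matrix protein (COMP), rose from a low level. The gene is on chromosome 15 from 11064790 to 11349231. Its values were 4.71, 3.54, 4.62 and 6.74 CPM in DMSO-treated mice 480 to 483 and 8.33, 7.46 and 13.2 CPM in ABT-263-treated mice 476 to 478. Again the groups did not overlap, with the highest value in mouse 478 rather than in mouse 476. Adamts12 rose by 0.98 on the log2 scale (SE 0.29, edgeR adjusted p = 0.0409, exact permutation p = 0.0571). Fits without DMSO-treated mouse 483 or without ABT-263-treated mouse 477 kept the call, and the other 5 fits did not, with 0.69 (adjusted p = 0.148) without mouse 478. After random thinning of all libraries to an equal total, the edgeR adjusted p was 0.0523.

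The start regions of the 3 genes that passed the test were taken from 250 bases before to 50 bases after the transcription start site in RefSeq (GRCm38.p6) and are printed to set side by side the letters upstream of the inhibitor that fell and of both proteases that rose. Such sequences were held for 8 of the 10 genes. Capitals mark a GC box (GGGCGG, or CCGCCC where it lies on the other strand) or a TATA box (TATAAA). Timp3 is chr10:86300162-86300461 on the plus strand, Adamts1 chr16:85803064-85803363 on the minus strand and Adamts12 chr15:11064523-11064822 on the plus strand.
Timp3: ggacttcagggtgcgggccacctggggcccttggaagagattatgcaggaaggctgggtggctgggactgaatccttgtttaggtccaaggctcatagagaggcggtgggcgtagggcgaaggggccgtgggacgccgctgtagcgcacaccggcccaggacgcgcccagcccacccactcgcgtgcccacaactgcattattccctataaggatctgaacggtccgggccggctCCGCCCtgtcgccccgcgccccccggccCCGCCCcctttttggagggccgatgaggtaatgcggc
Adamts1: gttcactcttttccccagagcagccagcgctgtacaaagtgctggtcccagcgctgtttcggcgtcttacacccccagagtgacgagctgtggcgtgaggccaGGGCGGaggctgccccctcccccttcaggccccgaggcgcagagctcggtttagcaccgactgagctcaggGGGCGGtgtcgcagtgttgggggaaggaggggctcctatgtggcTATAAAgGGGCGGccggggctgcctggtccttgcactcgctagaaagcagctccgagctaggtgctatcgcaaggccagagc
Adamts12: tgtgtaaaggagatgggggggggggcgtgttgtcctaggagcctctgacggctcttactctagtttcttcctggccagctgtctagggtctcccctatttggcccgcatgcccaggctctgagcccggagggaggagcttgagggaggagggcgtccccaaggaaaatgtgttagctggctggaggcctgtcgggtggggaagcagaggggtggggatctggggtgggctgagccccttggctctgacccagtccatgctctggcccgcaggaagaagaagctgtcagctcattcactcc
Timp3 has 2 GC boxes in this window, Adamts1 has 3 GC boxes and 1 TATA box, and Adamts12 has no match to either. Both strands were searched. A GC box was found in 6 of the 8 sequences and in 35.7% of 32851 mouse promoters of the same length, and a TATA box in 1 of 8 and in 13.6% of all. The AP-1 letters TGANTCA (7.81% of all promoters) and the STAT letters TTCNNNGAA (8.30%) were in none of the 8. A match describes letters only, and none says only that these letters are not in this window.

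The remaining aggrecan- and versican-cutting proteases, Adamts4, Adamts5 and Adamts9, had positive log2 fold changes that did not pass the test. Adamts4 on chromosome 1, from 171250421 to 171260637, was at 3.77, 1.48, 1.54 and 5.75 CPM after DMSO in mice 480 to 483, and at 32.7, 4.01 and 3.39 CPM after ABT-263 in mice 476 to 478. Only mouse 476 was above the DMSO range. The log2 fold change of 2.08 (SE 0.88, adjusted p = 0.120 from edgeR) was 0.24 without mouse 476 (adjusted p = 0.807). Adamts9, on chromosome 6 from 92772699 to 92943492, is a relative of the worm protease GON-1 and cuts versican. It was at 7.86, 4.93, 4.67 and 9.33 CPM after DMSO and at 29.4, 9.10 and 11.7 CPM after ABT-263, in the same order of mice. Mouse 477 lay just below DMSO-treated mouse 483, the log2 fold change was 1.32 (SE 0.44, adjusted p = 0.0616 from edgeR), and without mouse 476 it was 0.64 (adjusted p = 0.216). The DESeq2 Wald test called Adamts9 (adjusted p = 0.0159). Adamts5 on chromosome 16, from 85856173 to 85901828, is regarded as the main aggrecanase of mouse cartilage. Its values were 75.9, 36.3, 63.5 and 63.8 CPM after DMSO and 109.05, 60.4 and 74.3 CPM after ABT-263, which overlapped (log2 fold change 0.44, 95% interval -0.20 to 1.08, adjusted p = 0.274 from edgeR).

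**Figure D3:**
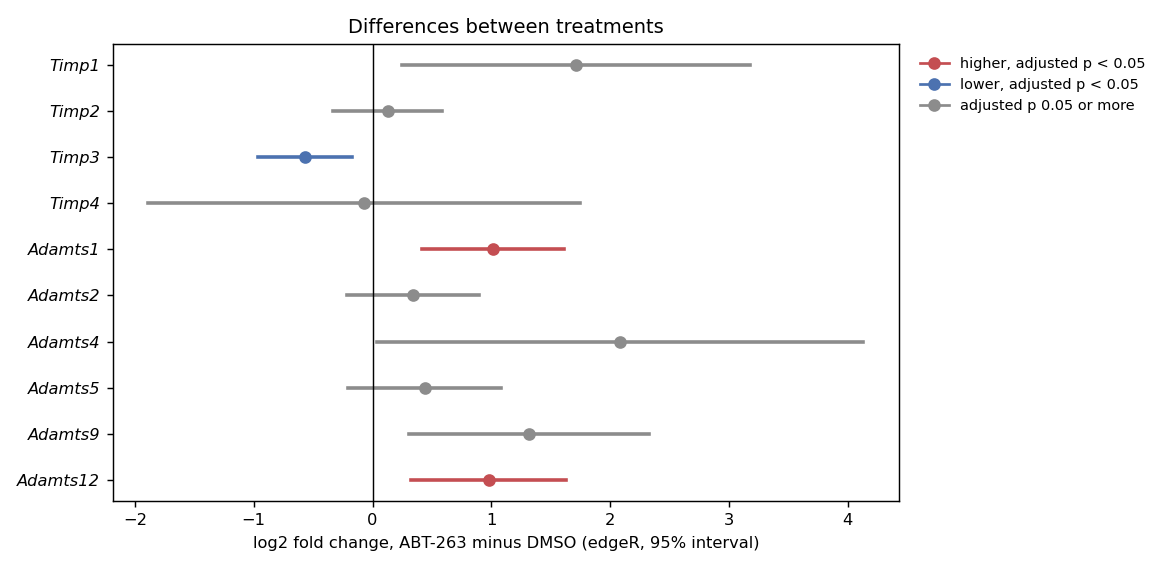
Log2 fold change between ABT-263- and DMSO-treated skin for the 10 genes (horizontal axis, edgeR) with 95% intervals, in red for a call higher, in blue for a call lower and in grey for no call. The intervals of 5 genes lie above 0 and that of Timp3 lies below it, before adjustment over all genes, while Timp4 and Adamts4 have the widest intervals.

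Adamts4, Adamts5 and Adamts9 were also set against Timp3 within each library, while Adamts1 was not. None of these ratios passed adjustment over 11 ratios, which no single ratio could do by itself with 7 mice. The log2 ratio of Adamts9 to Timp3 was -4.36, -5.44, -5.48 and -4.63 in DMSO-treated mice 480 to 483 and -2.04, -3.84 and -3.79 in ABT-263-treated mice 476 to 478. The groups did not overlap (difference 1.75, exact permutation p = 0.0286, adjusted p = 0.105 over 11 ratios). Adamts5 to Timp3 overlapped through DMSO-treated mouse 480, at -1.09, -2.56, -1.73 and -1.86 after DMSO and -0.15, -1.12 and -1.12 after ABT-263 (exact permutation p = 0.114, adjusted p = 0.180). For Adamts4 to Timp3 the difference was 2.08 (exact permutation p = 0.143, adjusted p = 0.196), for Adamts4 to Adamts5 1.07 (p = 0.286, adjusted p = 0.349) and for Adamts1 to Adamts5 0.53 (p = 0.0857, adjusted p = 0.180), each by the exact test and with overlapping groups. Timp1 to Timp2 differed by 1.36 (exact permutation p = 0.114, adjusted p = 0.180).

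**Figure D4:**
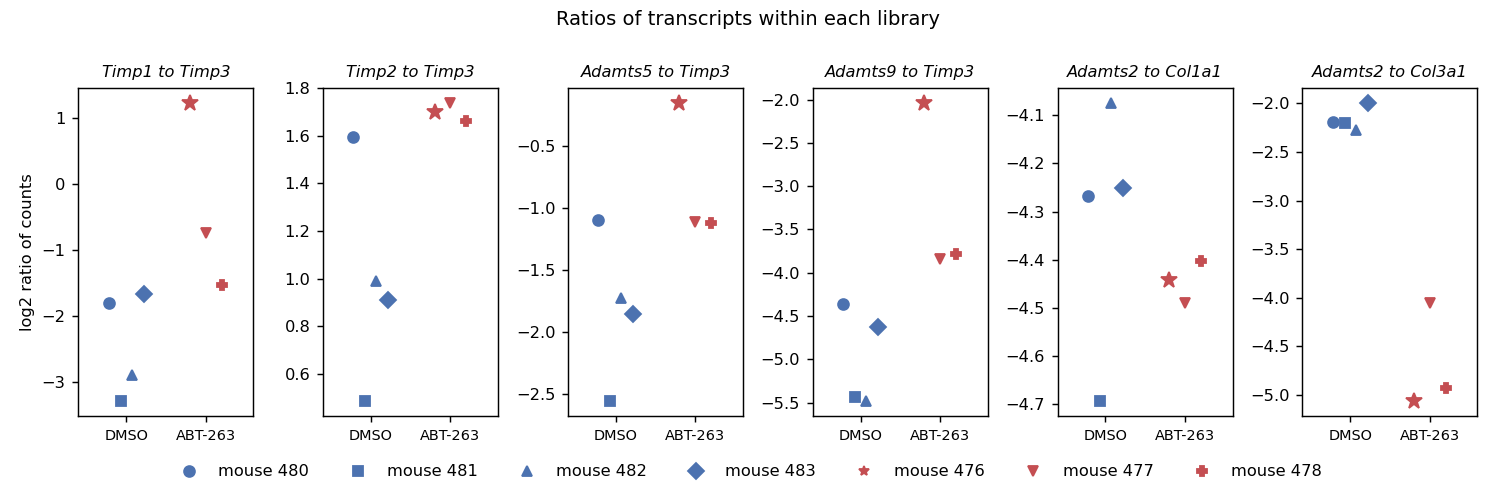
Log2 ratio of the counts of pairs of genes within each library (vertical axes, a different range in each panel), for 4 DMSO-treated mice in blue and 3 ABT-263-treated mice in red, with 1 symbol per mouse. Adamts2 to Col3a1 fell from between -2.28 and -2.00 after DMSO to between -5.06 and -4.05 after ABT-263, while Adamts2 to Col1a1 overlapped.

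Adamts2, the procollagen N-proteinase whose loss makes skin fragile, differed little between treatments. The gene is on chromosome 11 from 50602084 to 50807573. It was at 141, 74.6, 101 and 119.5 CPM after DMSO (mice 480 to 483) and at 109.9, 128 and 176 CPM after ABT-263 (mice 476 to 478). The groups overlapped, with a log2 fold change of 0.34 (95% interval -0.22 to 0.90, adjusted p = 0.329 from edgeR). Among its procollagen substrates, Col3a1 rose by 2.93 on the log2 scale (SE 0.35, edgeR adjusted p = 0.00602) and Col1a2 by 0.83 (adjusted p = 0.0410), while for Col1a1 the log2 fold change was 0.47 (adjusted p = 0.196). Adamts2 to Col1a1 therefore stayed in one range, with log2 ratios from -4.69 to -4.08 after DMSO and from -4.49 to -4.40 after ABT-263 (exact permutation p = 0.486, adjusted p = 0.486). Adamts2 to Col3a1 differed by -2.52, with no overlap (exact permutation p = 0.0286, adjusted p = 0.105), so that there were 0.206 to 0.250 Adamts2 counts per Col3a1 count after DMSO and 0.0299 to 0.0603 after ABT-263. Adamts14, another procollagen N-proteinase, fell, with 18.9 ± 6.51 CPM after DMSO (SD, n = 4) against 8.84 ± 1.42 CPM after ABT-263 (SD, n = 3), which is -1.09 as log2 fold change (SE 0.28, edgeR adjusted p = 0.0288), and kept its call in 2 of the 7 fits that left out a mouse. The third, Adamts3, had at most 0.257 CPM in any library and was not tested, and its ratio to Adamts2 (exact permutation p = 0.400, adjusted p = 0.440) rests on a few counts.

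Of 13 further ADAMTS proteases, 9 were tested, 1 rose and 1 (Adamts14) fell, with a median log2 fold change of -0.08. These counts are near the shares over all genes tested (12.4% higher and 11.7% lower). Adamts7, a protease that like Adamts12 cuts COMP, was at 3.15, 2.02, 1.59 and 2.96 CPM after DMSO and at 14.5, 7.36 and 7.15 CPM after ABT-263. The groups lay well apart, Adamts7 rose by 1.98 on the log2 scale (SE 0.35, edgeR adjusted p = 0.00987), and it kept the call in all 7 fits that left out a mouse. Adamts15, a further proteoglycan-cutting protease, had no overlap between groups but missed the threshold (log2 fold change 0.97, adjusted p = 0.0563 from edgeR). None of the 7 ADAMTS-like proteins, relatives without a protease domain, passed the test in either direction with edgeR, where 1 (Adamtsl3, log2 fold change 1.94, adjusted p = 0.0682) was higher at an unadjusted p-value under 0.05, and DESeq2 called 1 higher and 0 lower. Their median log2 fold change was -0.39.

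Genes that process or clear ADAMTS proteins included 3 that rose among 8 tested, and 0 fell (0 also at an unadjusted p-value under 0.05 with edgeR, and 0 with DESeq2), with a median log2 fold change of 0.53. Over all genes tested, 12.4% were called higher and 11.7% lower. Pcsk5, a proprotein convertase of the group that removes prodomains, rose by 2.28 on the log2 scale (adjusted p = 0.0143 from edgeR), and by 1.63 without mouse 476. Pofut2, which fucosylates the thrombospondin repeats that ADAMTS proteins carry, rose by 0.93 (adjusted p = 0.00883). Lrp1, the endocytic receptor that takes up ADAMTS5, ADAMTS4 and TIMP3, rose by 1.05 (adjusted p = 0.0222) and was at 0.80 (adjusted p = 0.0615) without mouse 476. Pcsk5 and Pofut2 kept their calls with each mouse left out, and Lrp1 in 4 of 7 fits.

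Among 13 known ADAMTS substrates, 10 were tested, 6 rose and 1 fell, with a median log2 fold change of 0.86. The shares over all genes tested were 12.4% higher and 11.7% lower. Versican, encoded by Vcan and the main large proteoglycan of the dermis, rose, with 12.6 ± 1.68 CPM after DMSO (SD, n = 4) against 37.1 ± 14.5 CPM after ABT-263 (SD, n = 3), which is 1.55 as log2 fold change (SE 0.27, edgeR adjusted p = 0.00987). It was called with each mouse left out. Acan, which encodes aggrecan, fell by 2.42 on the log2 scale from a low level, with 3.12 ± 2.27 CPM after DMSO (SD, n = 4) against 0.566 ± 0.343 CPM after ABT-263 (SD, n = 3) and adjusted p = 0.0347 from edgeR, and only 1 of 7 fits that left out a mouse kept this call. Acan was highest in DMSO-treated mouse 481 at 6.49 CPM, a mouse that also stood apart in hair follicle keratins. ABT-263-treated mouse 478, with the most hair follicle keratin of its group (428 CPM), had Acan at 0.687 CPM, below mouse 477 at 0.832 CPM. Adamts14, also called lower, was highest of the DMSO group in mouse 481 (26.6 CPM) and of the ABT-263 group in mouse 478 (10.4 CPM). Whether hair follicle content bears on either gene was not tested. Thbs1, encoding thrombospondin 1, rose by 2.06 (adjusted p = 0.0297), Fbn1, encoding fibrillin 1, by 1.32 (adjusted p = 0.0446) and Comp by 0.90 (adjusted p = 0.0406). Without mouse 476 none of these 3 kept its call, although only Thbs1 moved much in size, to 1.202 (adjusted p = 0.0662 from edgeR), with Fbn1 at 1.47 (adjusted p = 0.0797) and Comp at 0.82 (adjusted p = 0.121).

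Of the metalloproteinases that TIMPs block, 13 of 19 tested genes were higher and 0 lower in edgeR. Of all genes tested, 12.4% were higher and 11.7% lower. At an unadjusted p-value under 0.05 in edgeR, 15 of the list were higher and 1 lower. In DESeq2, 9 were higher and 0 lower, but Mmp3, Mmp9, Mmp10, Mmp12 and Mmp13 had no adjusted p-value there. The median log2 fold change of the 19 genes was 1.56. Mmp3 (stromelysin 1), Mmp9 (gelatinase B) and Mmp13 (collagenase 3) rose by 2.76, 3.63 and 4.98 on the log2 scale, and by 1.44, 1.84 and 2.37 without mouse 476, where Mmp3 lost its call (adjusted p = 0.0915 from edgeR). Adam10 and Adam17, membrane sheddases that TIMP3 blocks, rose by 0.72 and 0.76 (adjusted p = 0.0158 and 0.0233), and Adam12 rose by 1.99 (adjusted p = 0.00980). Mmp2 (gelatinase A), the partner of Timp2 in its activation, rose by 1.17 (adjusted p = 0.0185), while for its activator Mmp14 the log2 fold change was 0.19 (adjusted p = 0.592). The other called genes of this list were Mmp10, Mmp11, Mmp12, Mmp19, Mmp23 and Mmp28, with log2 fold changes of 5.65, 1.56, 3.73, 1.84, 0.61 and 0.89. Without mouse 476, Mmp10 was at 2.38 (adjusted p = 0.199), Mmp19 at 1.227 (adjusted p = 0.0985) and Mmp12 at 1.24 (adjusted p = 0.0433). Mmp11, Mmp23 and Adam17 also lost their calls without this mouse, at log2 fold changes of 1.44, 0.60 and 0.66 (adjusted p = 0.0778, 0.0585 and 0.0675 from edgeR). Of the 10 cytokines known to induce TIMP or ADAMTS genes, 5 rose and 0 fell with both edgeR and DESeq2 (6 higher and 0 lower at an unadjusted p-value under 0.05 in edgeR), with a median log2 fold change of 2.23. The 5 were Il1a, Il1b, Osm, Lif and Tnf, at log2 fold changes of 2.41, 5.21, 4.51, 2.04 and 3.30, and without mouse 476 at 1.97, 3.45, 2.52, 1.202 and 2.18. Il1b and Tnf kept their calls without this mouse, and Il1a, Osm and Lif lost them (adjusted p = 0.111, 0.0567 and 0.125 from edgeR). Il1b was at 736, 140.2 and 38.5 CPM in ABT-263-treated mice 476, 477 and 478 and at 5.11 to 12.1 CPM after DMSO. Osm, encoding oncostatin M, a known inducer of Timp1, was at 65.2, 10.6 and 2.34 CPM in the same ABT-263 mice and at 0.409 to 1.68 CPM after DMSO. Both cytokines, like Timp1, were highest in mouse 476 and lowest of the ABT-263 group in mouse 478. Of the other called cytokines, Il1a and Tnf had this order too, while Lif was lowest in mouse 477 (1.29 CPM). In the DMSO group the cytokines differed in this. Timp1 was highest there in mouse 483 (72.8 CPM) and lowest in mouse 481 (21.8 CPM). Tnf was highest and lowest in the same mice (1.56 and 0.885 CPM). Osm was highest in mouse 483 (1.68 CPM) but lowest in mouse 480, where Timp1 was at 46.4 CPM. Il1a was lowest in mouse 481 (1.77 CPM) but highest in mouse 480 (9.90 CPM). Il1b was highest in mouse 481 and lowest in mouse 480, and Lif was highest in mouse 482 and lowest in mouse 480. Whether these cytokines bear on Timp1 was not tested.

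**Figure D5:**
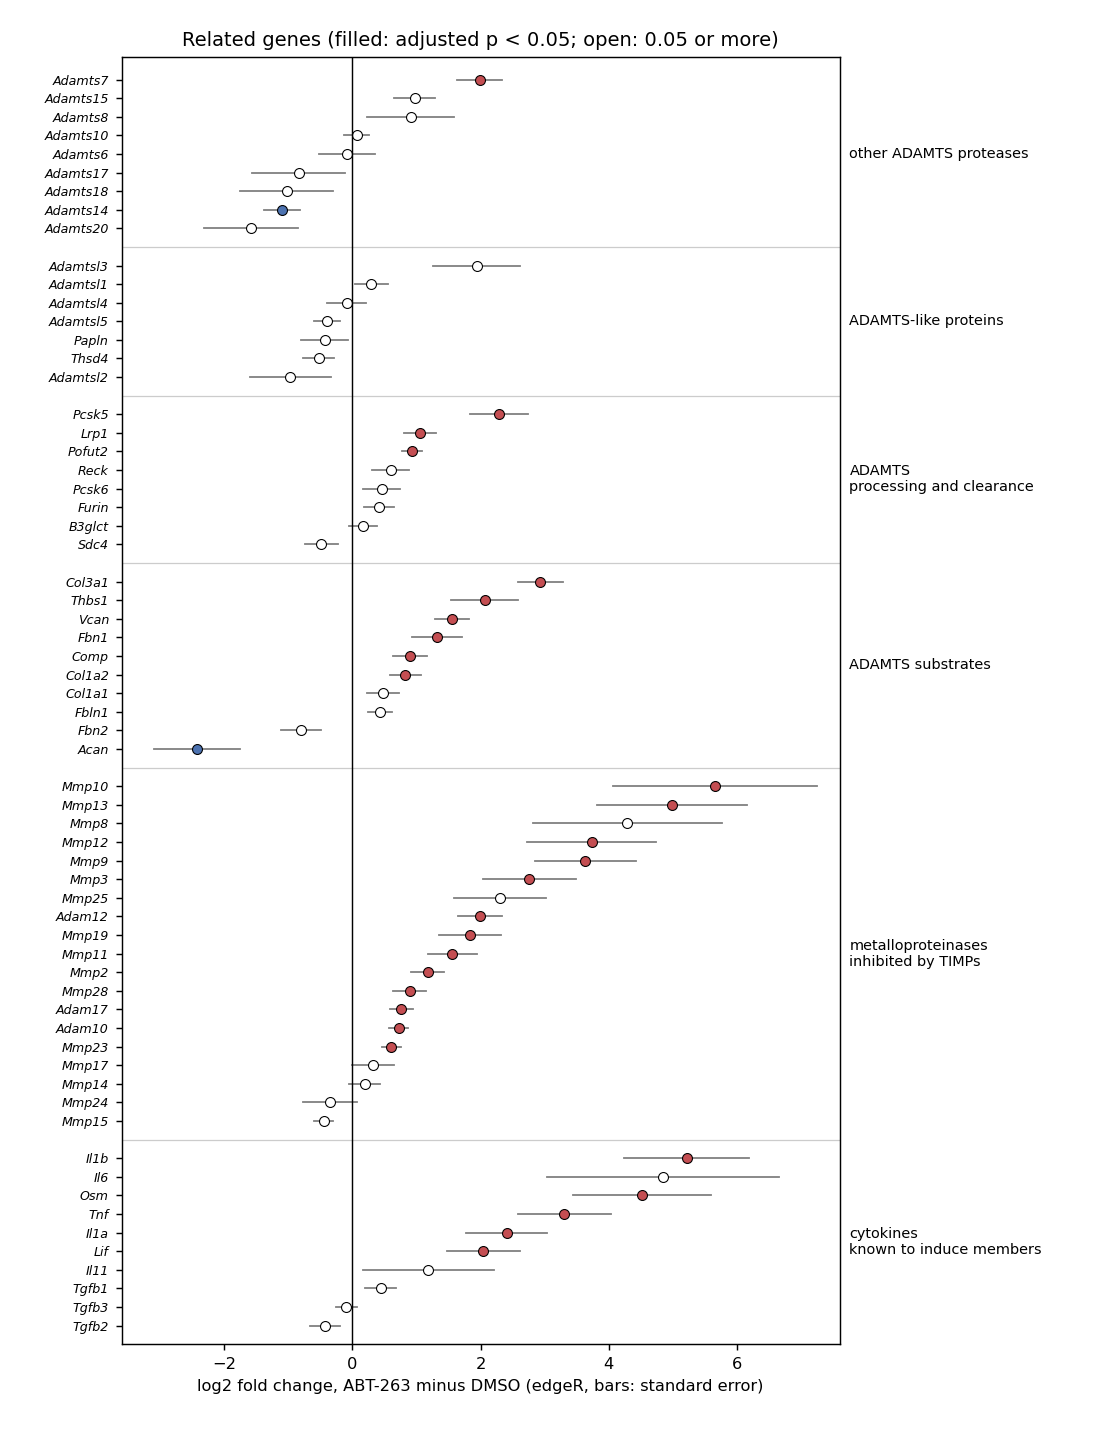
Log2 fold change between ABT-263- and DMSO-treated skin (horizontal axis, edgeR, bars show the standard error) for the tested genes of the 6 related lists, with filled points for an adjusted p-value under 0.05 in red (higher) or blue (lower) and open points otherwise. The lists of metalloproteinases and substrates hold mostly genes that rose, and the ADAMTS-like proteins hold no call.

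No mouse was at the same end of its group for all 10 genes. Mouse 476 was the highest of the 3 ABT-263 mice for Timp1, Timp4, Adamts1, Adamts4, Adamts5 and Adamts9 and the lowest for Timp2, Timp3 and Adamts2. After DMSO, mouse 481 was the lowest for 7 of the 10 genes and mouse 483 the highest for 6. Markers of other cells moved beside these genes, where 12.4% of all genes tested were called higher and 11.7% lower. Summed macrophage markers (5 of 6 genes higher) were at 107 to 256 CPM in DMSO and 382 to 853 CPM in ABT-263 libraries, with the highest value in mouse 476. Summed neutrophil markers (3 of 6 higher) ran from 100.1 to 1822 and from 5098 to 8363 CPM. S100a8 and S100a9 made up most of this sum (means of 2236 and 3941 CPM after ABT-263). Cxcr2, Csf3r, Retnlg and Mmp8 had means of 0.457 to 6.40 CPM after DMSO and of 20.4 to 79.1 CPM after ABT-263. Their ABT-263 values were uneven between mice. Retnlg ran from 2.09 to 232 CPM, Csf3r from 10.7 to 78.0, Cxcr2 from 13.6 to 66.4 and Mmp8 from 0.807 to 59.1 CPM, and Mmp8 overlapped with DMSO. Endothelial markers (5 of 6 higher) ran from 185 to 386 and from 497 to 625 CPM. Fibroblast markers (2 of 6 higher, Pdgfra and Lum) ran from 928 to 1448 and from 1417 to 2245 CPM, with the groups overlapping. Skeletal muscle markers (2 of 6 lower) ran from 32510 to 65665 and from 25077 to 33481 CPM, and keratinocyte markers (1 of 6 lower) from 28132 to 67846 and from 19407 to 59129 CPM. No gene passed in the smooth muscle and pericyte, adipocyte, hair follicle and T cell lists, each with overlapping sums. Thy1 made up most of the T cell sum (means of 195 CPM after DMSO and 201 CPM after ABT-263). Each gene of these 10 lists had counts in at least 1 library, and summed keratinocyte and fibroblast markers were well above 0 in all 7. The part of cell makeup in the differences above was not tested.

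By likeness of the profile over the 7 libraries, measured as the root-mean-square difference of centred log2 CPM among 15590 genes with a mean of at least 1 CPM, Timp3 was nearest to Ppp6r2 (0.0822), Zfp3 (0.0870) and Hif1an (0.0873). Adamts1 was nearest to Ctbs (0.0829), Clic4 (0.114) and Esyt1 (0.130), and Adamts12 to Sparcl1 (0.145), Ehbp1 (0.149) and Olfml3 (0.156). Differences this small between profiles describe these libraries only, since all of them share the treatment groups.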

How the data were processed

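Skin RNA of 7 mice (4 DMSO, 3 ABT-263) was sequenced, with groups and mouse numbers taken from the sample labels. The authors aligned reads to mm10 with STAR 2.7.9a and deposited raw counts of uniquely aligned proper pairs on the same strand per Ensembl gene (featureCounts, Subread 1.6.2), without mitochondrial genes. Because counting used strand, reads facing a gene from the other strand were kept apart. A second table deposited by the authors holds the same counts after variance stabilization, on a scale close to log2 (DESeq2 1.23.10), used here only as an alternative. The labels name a TRIzol kit for RNA and the methods an RNeasy kit.

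Counts were analysed in R 4.3.3 with edgeR 4.0.16 (filterByExpr, TMM, robust quasi-likelihood, two-sided, Benjamini-Hochberg adjustment over 17959 genes, threshold 0.05). Standard errors are the log2 fold change divided by the square root of F. The script was tested on simulated data. GENCODE M21 (GRCm38) gave symbols, positions and exon lengths for 55190 of 55450 identifiers. The authors counted on a later Ensembl annotation. CPM and RPKM were computed with TMM library sizes. Log2 ratios used 0.5 added counts and exact permutation over 35 assignments of the mice. Alternatives were DESeq2 1.42.0 (Wald test and size factors), other filters, thinned counts, limma 3.58.1 on the variance-stabilized values, and leaving out each mouse. Nothing in the labels says whether mice shared a cage or batch.

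The genes and lists were chosen with earlier results of these data known. Named are all 10 genes, related genes past the threshold or needed to read one of the 10 (substrates, partners, inducers), and for each called gene the 3 genes with the most similar profile. Depth was 20344364 to 43562330 counts per library, and every one of the 10 genes had at least 30 counts in each.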

Additional observations from a re-analysis of the deposited data

Results flagged for a closer look

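Among 31 measures examined in the 4 DMSO-treated mice (the 10 genes, 11 ratios and 10 marker sums), 1 had a mouse far from the others by Dixon's ratio at its 5% level, where chance gives about 1.55. Summed hair follicle keratins were at 2249 CPM in mouse 481 and between 13.0 and 16.8 CPM in the other DMSO-treated mice (ratio 0.998). The ABT-263 group was not searched in this way, but its values were also uneven, at 0.429, 2.85 and 428 CPM in mice 476, 477 and 478. None of the 10 TIMP and ADAMTS genes had a mouse past Dixon's 5% level in the DMSO group. Mouse 481 was the lowest of the DMSO group for 7 of these genes, and without it Timp3, Adamts1 and Adamts12 had log2 fold changes of -0.55, 0.92 and 0.85 (adjusted p = 0.0884, 0.0652 and 0.0836 from edgeR). Whether the hair follicle signal bears on them was not tested.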

How the results depend on the processing

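Over 129 values of the 10 genes under up to 13 alternatives each, 126 kept their direction, 104 also kept their side of the threshold, 19 lost a call and 3 gained one. Adamts4 had no adjusted p from the DESeq2 Wald test. Reversed, with no call before or after, were Timp2 without mouse 481 (-0.00121) and Timp4 without mouse 483 (0.63) or mouse 477 (0.45), in ranges with a mouse left out of -0.00121 to 0.22 and -0.80 to 0.63. Higher calls among the 10 genes numbered 4 with the DESeq2 Wald test and 1 with thinned counts, against 2, and ran from 0 to 3 with a mouse left out. Lower calls numbered 0 with no filter on low counts, and 0 to 1 with a mouse left out, against 1. In the related lists, higher calls numbered 28, or 16 with no such filter, and 8 to 25 with a mouse left out, the fewest without DMSO-treated mouse 482. Lower calls there numbered 2, or 1 with at least 10 counts in every library, and 0 to 3 with a mouse left out. The cause of these shifts was not tested, but with a mouse left out between 9.39% and 23.5% of all genes passed, against 24.2% with all mice. Of the 11 ratios, 4 had no overlap, as with 5 added counts, and 4 to 6 with a mouse left out. For single genes, 37.1% of those tested had no overlap, and fewer mice make overlap less likely. The ratios of Timp1, Timp2 and Adamts9 to Timp3 share their divisor, so they are not separate results. All 88 ratio values under these settings moved by less than the larger group SD. A mouse left out cannot move a group mean further than that, so those fits do not measure stability. No paired analysis was possible because the groups share no mouse numbers. With 4 mice against 3, a difference of the size of Adamts4 could not be placed more closely than between 1.02- and 17.5-fold.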

Other observations

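The makeup of the 6 ADAMTS transcripts per length of all annotated exons was also compared. Their summed level was 27.8, 15.9, 23.2 and 26.3 RPKM in DMSO-treated mice 480 to 483 and 44.0, 27.4 and 37.4 RPKM in ABT-263-treated mice 476 to 478, with mouse 477 just below mouse 480. Adamts2 made up 46.7% to 54.3% of this sum after DMSO, and 26.7%, 50.1% and 50.4% in ABT-263-treated mice 476, 477 and 478. Adamts4 made up 15.5% in mouse 476 and between 1.38% and 4.54% in the other mice, of either treatment. Adamts5 made up between 18.4% and 25.4% and Adamts1 between 14.1% and 28.6% over all 7 mice. In mouse 476 alone, Adamts1 exceeded Adamts2.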
